A study of Mus musculus with 3 samples.

Results

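The cells described here are acinar cells of the mouse pancreas whose barcodes hold a high level of Prss1, a trypsinogen gene that most other acinar barcodes of the same libraries held at or near 0. A barcode is the droplet label that stands for 1 cell, and a UMI is 1 counted RNA molecule. Kept barcodes had 500 UMIs or more from 200 genes or more, with mitochondrial genes supplying no more than 20% of UMIs. A kept barcode was taken as acinar when 16 acinar genes (Cpa1, Cpb1, Cela1, Cela2a, Cela3b, Ctrb1, Ctrl, Pnlip, Prss2, Try4, Try5, Cel, Amy2a5, Rnase1, Zg16 and Clps) held at least 35% of its UMIs, and as Prss1-high when Prss1 also had at least 10 UMIs and at least 0.2% of them. This gave 169 Prss1-high barcodes of 32811 acinar barcodes, out of 36630 kept and 41134 deposited. They are described against the other acinar barcodes of their own library.

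Pancreas was dissociated and sequenced in 3 libraries, 1 per group, using version 3 of the 10x Chromium 3-prime kit. The library labelled none came from sedentary animals given no treatment, whose genotype and age were not given in the sources used here. Sedentary diabetic animals gave the library labelled diabetic, and exercised diabetic animals the library labelled diabetic-Exercise. The last 2 are called diabetic sedentary and diabetic exercise below. Per the design text, male db/db mice, a strain made obese and diabetic by loss of the leptin receptor, were put on a treadmill at 6 weeks of age. Whether none holds db/db mice is not stated. The number of animals behind a library is not stated. With 1 library per group there are no replicates, and genotype, diabetes, training and the handling of a library cannot be told apart. Since every gene of a barcode enters the rule or its total, all contrasts below are descriptions with no test.

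Acinar cells make the digestive enzymes and store them in zymogen granules. Trypsinogens are the inactive precursors of trypsin, which in the gut cuts and activates the other proenzymes, and which injures the pancreas when it becomes active inside the acinar cell. Mice carry a large family of trypsinogen genes in 1 cluster, of which Prss2, 2210010C04Rik, Try4 and Try5 supplied most trypsinogen RNA in the acinar barcodes here. Spink1, a small trypsin inhibitor packed in the same granules, and cathepsins B and L, lysosomal proteases that can activate or degrade trypsinogen, act on the same step.

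The libraries held 9958, 12743 and 18433 deposited barcodes and 54128454, 80185752 and 45209034 UMIs, in the order none, diabetic sedentary and diabetic exercise used throughout. Acinar barcodes outside the Prss1-high set had a median of 4150, 5533 and 1944 UMIs, so the exercise library was the shallowest per barcode. Their median mitochondrial share of UMIs was 0.625%, 1.76% and 6.84%. Prss1-high barcodes had a median of 6340 UMIs and 1.72% mitochondrial UMIs in diabetic sedentary, and of 3273.5 UMIs and 3.13% in diabetic exercise. The minimum of 10 Prss1 UMIs keeps out shallow barcodes: the shallowest Prss1-high barcode had 1651 UMIs in diabetic sedentary and 1430 in diabetic exercise, against 538 and 501 among other acinar barcodes. Barcode sequences that occurred in both libraries of a pair numbered 32 (none and diabetic sedentary), 43 (none and diabetic exercise) and 61 (both diabetic libraries), and 0 of them were Prss1-high in both.

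Some Prss1-high barcodes may not be separate cells. Among the 68 of diabetic sedentary with at least 5000 UMIs, 3 pairs formed by 3 barcodes differed by a chi-square of at most 1.55 per gene, where sampling noise gives about 1 and the median pair had 16.4. Among the 18 of diabetic exercise, 1 pair (38520 and 34732 UMIs) had a chi-square of 1.22 per gene against a median of 15.8. The sequences of the closest pair differed at 13 positions in each library. All were counted as given. Scrublet, a doublet caller, marked 0% of barcodes at its automatic threshold, and 0 of the 169 Prss1-high barcodes stood among the top 5% of their library by doublet score.

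Prss1-high barcodes were found in both diabetic libraries and not in none. They were 113 of 9767 acinar barcodes in diabetic sedentary (1.16%, exact Clopper-Pearson 95% interval 0.954 to 1.39) and 56 of 14460 in diabetic exercise (0.387%, 0.293 to 0.503). In none they were 0 of 8584, which allows a share of up to 0.0349%. Among acinar barcodes with at least 5000 UMIs the shares were 0 of 3290 in none (up to 0.0912%), 1.27% in diabetic sedentary and 2.79% in diabetic exercise, from 68 and 18 barcodes. The order of the diabetic libraries thus turned with depth. These intervals and limits cover counting error only.

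**Figure D1:**
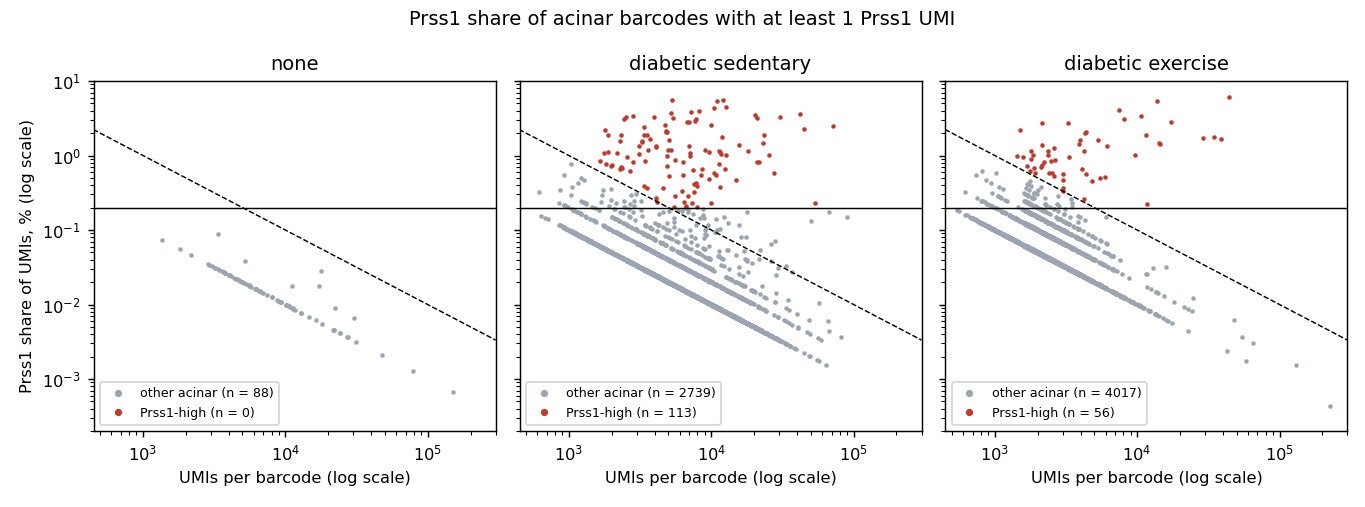
Share of UMIs from Prss1 (y axis, percent, log scale) against UMIs per barcode (x axis, log scale) for acinar barcodes with at least 1 Prss1 UMI, 1 panel per library; red points are Prss1-high barcodes, the solid line is 0.2% and the dashed line is 10 UMIs. Red points, 113 and 56 of them, reach 5.59% and 6.16% in the diabetic libraries, and the panel of none has no point above either line.

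Just inside the threshold, the Prss1-high barcode with the lowest share had 0.202% in diabetic sedentary (11 of 5455 UMIs) and 0.221% in diabetic exercise (26 of 11787). Just outside it, the highest share among acinar barcodes with at least 10 Prss1 UMIs was 0.199% in diabetic sedentary (13 of 6548). In diabetic sedentary 32 acinar barcodes had 10 or more Prss1 UMIs with too low a share, and in diabetic exercise 0 had. A further 38 and 80 acinar barcodes reached 0.2% with fewer than 10 UMIs. The diabetic sedentary set therefore borders on barcodes short of the share and on barcodes short of 10 UMIs, and the diabetic exercise set only on the latter.

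Prss1-high barcodes were few but held most Prss1 RNA of the acinar class. In diabetic sedentary they held 17892 Prss1 UMIs, 79.2% of those in acinar barcodes, and the 9654 other acinar barcodes held 4697. In diabetic exercise they held 8662, or 60.7%, and 14404 other acinar barcodes held 5616. All 8584 acinar barcodes of none together held 100, with at most 5 in a barcode. A Prss1 UMI was present in 28.4% and 27.9% of the other acinar barcodes of the diabetic libraries. Barcodes outside the acinar class with at least 3 UMIs of endothelial markers, which should lack the gene, had one in 22.1% and 17.6% (median depths 2781 and 2799 UMIs), and in 0% in none. Their summed level was 243 counts per 1000000 UMIs (CPM) in diabetic sedentary, or 73.4 without 1 barcode that passed the Prss1 thresholds, and 72.2 in diabetic exercise. Other acinar barcodes stood at 68.0 and 163 CPM. This was below both endothelial values in diabetic sedentary and above the endothelial value in diabetic exercise. Endothelial and acinar barcodes differ in depth and in their share of acinar RNA, and the source of these Prss1 UMIs was not tested.

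The 4 genes given as marks of these cells were all present in them. Prss1, Gm5771 and Gm10334 had a UMI in 100% of Prss1-high barcodes of both libraries, and 1810009J06Rik in 99.1% of diabetic sedentary and 100% of diabetic exercise. The 16 acinar genes held a median of 60.8% and 58.5% of their UMIs, against 68.7% and 60.9% in other acinar barcodes.

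All 12 genes of the trypsinogen list lie on chromosome 6 between 40964754 and 41525079 (GRCm38, GENCODE M21). Prss1 (ENSMUSG00000062751) spans chr6:41458932-41463786 on the plus strand, Gm5771 chr6:41392356-41397230 (plus), Gm10334 chr6:41442216-41446145 (minus) and Prss3 chr6:41373814-41377678 (minus). 1810009J06Rik at chr6:40964754-40968435 (plus) and Gm2663 at chr6:40995830-40999479 (minus) lie at the other end of the cluster. The members that were high together form near-identical pairs: the transcripts of Prss1 and Gm5771 are 97.8% identical over 776 aligned bases, those of Prss3 and Gm10334 98.9% over 821, and those of 1810009J06Rik and Gm2663 99.4% over 862, while Prss1 and Prss2 are 88.1% identical over 805. Between pairs, Prss1 and Prss3 are 96.1% identical and Prss1 and 1810009J06Rik 72.6%.

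Promoter sequence bears on genes that move together, and RefSeq's promoter table (GRCm38.p6) held 8 of the 12. The 110 bases from 180 to 71 before the annotated start are shown for Prss1, Gm5771, Gm10334 and Prss3, which were high in these cells, and for Try4 and Prss2, which are abundant in all acinar barcodes. They read 5′ to 3′ on the gene's strand, and capitals mark every CANNTG, the core that basic helix-loop-helix factors bind, which reads the same on both strands.
Prss1 (chr6:41458750-41458859, plus strand): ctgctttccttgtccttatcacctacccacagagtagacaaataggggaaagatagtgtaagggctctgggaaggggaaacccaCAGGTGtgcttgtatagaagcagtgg
Gm5771 (chr6:41392176-41392285, plus strand): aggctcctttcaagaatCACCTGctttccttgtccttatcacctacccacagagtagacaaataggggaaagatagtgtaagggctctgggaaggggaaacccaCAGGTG
Gm10334 (chr6:41446168-41446277, minus strand): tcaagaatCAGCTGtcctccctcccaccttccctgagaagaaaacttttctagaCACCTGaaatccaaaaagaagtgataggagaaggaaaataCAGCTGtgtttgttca
Prss3 (chr6:41377684-41377793, minus strand): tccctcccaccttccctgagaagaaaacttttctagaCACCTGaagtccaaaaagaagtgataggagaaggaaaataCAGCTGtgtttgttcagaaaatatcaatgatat
Try4 (chr6:41302092-41302201, plus strand): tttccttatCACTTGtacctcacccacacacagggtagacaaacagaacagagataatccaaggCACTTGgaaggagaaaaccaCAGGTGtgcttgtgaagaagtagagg
Prss2 (chr6:41521596-41521705, plus strand): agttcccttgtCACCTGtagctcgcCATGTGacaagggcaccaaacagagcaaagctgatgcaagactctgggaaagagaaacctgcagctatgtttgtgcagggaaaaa
Over 230 aligned upstream bases Prss1 and Gm5771 were 98.3% identical, and Gm10334 and Prss3 were 97.0% identical over 233. Prss1 and Prss2 were 68.1% identical over 213, and Prss1 and Gm10334 69.1% over 217. The genes that were high together thus include 2 promoter pairs about as unlike each other as Prss1 and Prss2. Prss1 and Try4 were 80.8% identical over 214, and Gm10334 and Prss2 76.0% over 196. Prss1 and Gm10334 were thus each nearer to an abundant gene than to each other. CANNTG occurred in all 6 windows and in 38.8% of the 32851 windows of that length in the table. Its forms CAGGTG or CACCTG occurred in 8.18% of all windows and CAGCTG in 5.97%. These matches describe letters and not bound sites. Windows were set from each annotated start, so near-identical promoters are cut at different points. The Prss1 window opens inside the stretch that aligns with the CACCTG of Gm5771. The Prss3 window opens just past the stretch that aligns with the upstream CAGCTG of Gm10334. Unequal numbers of marked sites within these pairs thus lie at the window edge, and the bases before it are not shown.

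Besides Prss1 itself, 5 other trypsinogen genes that are nearly silent in most acinar cells were high in Prss1-high barcodes of both diabetic libraries. The level of a gene, in CPM, is its UMIs per 1000000 UMIs of the summed barcodes, and a ratio is that of Prss1-high over other acinar barcodes of the same library, with an exact conditional Poisson 95% interval that covers counting error only. Prss1, which chose the barcodes, stood at 16999 CPM in Prss1-high barcodes of diabetic sedentary against 68.0 in the others, and at 22032 against 163 in diabetic exercise. Single Prss1-high barcodes ran from 2016.5 over a median of 10954 to 55916 CPM in diabetic sedentary, and from 2206 over 10050 to 61642 in diabetic exercise. The highest other acinar barcodes, with fewer than 10 UMIs, stood at 7715 and 6188. One barcode of diabetic exercise held 31.4% of all Prss1 UMIs of the set.

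Gm5771, the near-identical copy of Prss1, had 16812 CPM in Prss1-high and 126 in other acinar barcodes of diabetic sedentary (ratio 133, 130 to 137). In diabetic exercise it had 23166 and 258 (ratio 89.8, 87.2 to 92.5). Single Prss1-high barcodes ran from 1201 over a median of 15572 to 42512 CPM in the first library and from 1716 over 12948 to 56796 in the second. Every Prss1-high barcode lay above the median of other acinar barcodes, which was 0, but the ranges overlapped, since other barcodes reached 17551 and 17391.

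Gm10334 had 26938 and 196 CPM in diabetic sedentary (ratio 137, 134 to 140) and 52027 and 489 in diabetic exercise (ratio 106, 104 to 109). Single barcodes ran from 982 over 17698 to 79495 and from 1226 over 24309 to 123717 CPM. Prss3 had 25504 and 347 in diabetic sedentary (ratio 73.6, 72.3 to 74.9) and 33150 and 606 in diabetic exercise (ratio 54.7, 53.5 to 55.9). In the barcodes of diabetic sedentary it ran from 622 over 20734 to 64482 and in those of diabetic exercise from 490 over 18684 to 71199. Of the 113 and 56 Prss1-high barcodes, 110 and 54 exceeded the 99th percentile of other acinar barcodes for Gm10334, and 106 and 54 for Prss3.

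1810009J06Rik and Gm2663, at the far end of the cluster, were also high. 1810009J06Rik had 7827 and 129 CPM in diabetic sedentary (ratio 60.7, 58.9 to 62.5) and 6107 and 72.2 in diabetic exercise (ratio 84.6, 80.0 to 89.5). Gm2663 had 6975 and 99.7 (ratio 70.0, 67.7 to 72.3), and 9223 and 73.3 (ratio 126, 120 to 132). In diabetic sedentary single barcodes reached from 0 to 21544 for the first and from 0 to 27096 for the second. All 6 genes were detected together in 111 of 113 and 55 of 56 Prss1-high barcodes.

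**Figure D2:**
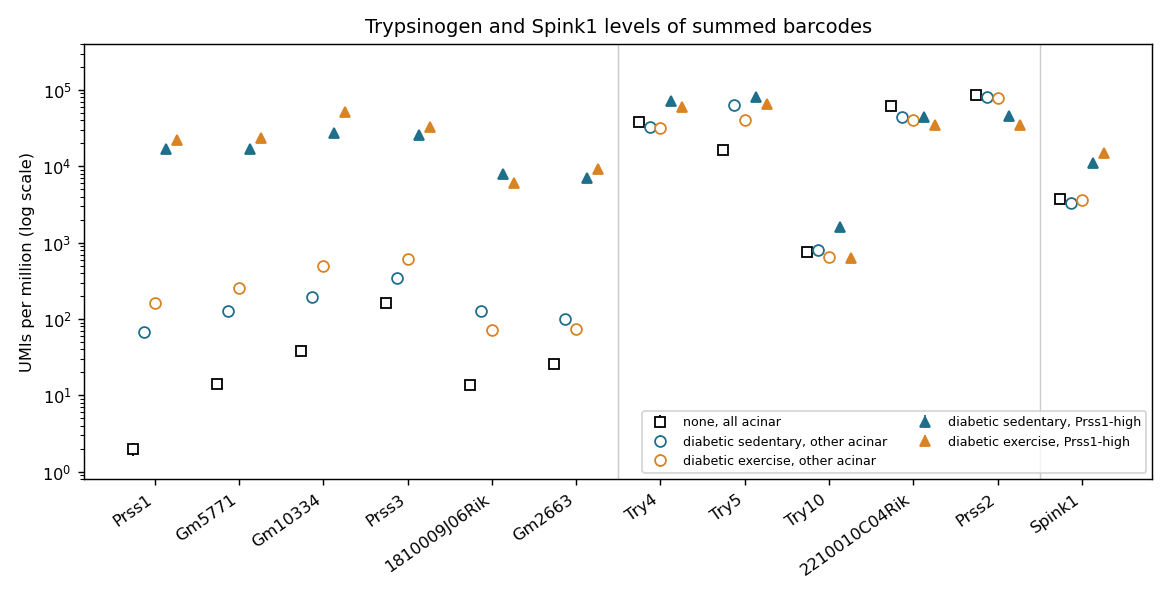
Level of 11 trypsinogen genes and of Spink1 (y axis, CPM, log scale) in the summed acinar barcodes of none (squares), other acinar barcodes (circles) and Prss1-high barcodes (triangles) of the diabetic libraries; error bars are exact Poisson 95% intervals for counting error, mostly smaller than the symbols. For the 6 genes on the left the triangles lie between 6107 and 52027 and all circles and squares at 606 or below, while for the genes on the right the symbols lie within a few-fold of each other.

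Reads cannot always be assigned between near-identical copies. Of the 211 windows of 90 bases in the last 300 transcript bases, where 3-prime reads fall, 28.9% of those of Prss1 occur also in Gm5771, and 48.8% of those of Gm5771, 55.0% of Prss3, 28.9% of Gm10334 and 65.4% of both 1810009J06Rik and Gm2663 occur in another member, against 0% for Prss2 and 2210010C04Rik. Gm5771 and Prss3 share windows with each other and with Gm10334, so reads may also cross between the first 2 pairs, while 1810009J06Rik and Gm2663 share them only with each other. Values of single copies are therefore uncertain. Prss1 and Gm5771 together had 33811 CPM against 194 in diabetic sedentary (ratio 174, 171 to 178) and 45198 against 421 in diabetic exercise (107, 105 to 110). Gm10334 and Prss3 together had ratios of 96.6 (95.3 to 97.9) and 77.8 (76.7 to 79.0), and 1810009J06Rik and Gm2663 together 64.7 (63.3 to 66.2) and 105 (101 to 109). Prss1, Gm5771, Gm10334 and Prss3 summed had 86253 against 737 CPM in diabetic sedentary (117, 115.8 to 118) and 130375 against 1516 in diabetic exercise (86.0, 85.0 to 87.1). The sum of these 4 genes and that of the far pair were thus high in both libraries, while the split between the first 2 pairs is uncertain.

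The 6 genes together held 10.1% of all UMIs of Prss1-high barcodes in diabetic sedentary and 14.6% in diabetic exercise, against 0.0966% and 0.166% in other acinar barcodes and 0.0255% in none. Per barcode the sum ran from 0.880% over a median of 7.83% to 25.6% in diabetic sedentary and from 1.15% over 7.47% to 29.3% in diabetic exercise. The other acinar barcodes had medians of 0.0555% and 0.134% and reached 6.98% and 5.84%. All 12 trypsinogens together held 34.6% and 34.1% of UMIs in Prss1-high barcodes, against 22.4% and 19.3% in the others and 20.3% in none.

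The abundant trypsinogens differed in direction. Try4 was higher in Prss1-high barcodes, at 71501 against 32922 CPM in diabetic sedentary (ratio 2.17, 2.16 to 2.19) and 60174 against 31543 in diabetic exercise (1.91, 1.88 to 1.93). Single barcodes ran from 27129 over a median of 58389 to 120387 CPM and from 26026 over 53560 to 81616, and 110 of 113 and 53 of 56 lay above the median of other acinar barcodes. Try5 had ratios of 1.28 (1.27 to 1.29) and 1.60 (1.58 to 1.62). Prss2, the most abundant trypsinogen of other acinar barcodes, was lower, at 45526 against 80987 in diabetic sedentary (0.562, 0.557 to 0.567) and 34658 against 77721 in diabetic exercise (0.446, 0.438 to 0.453). Its single barcodes ran from 16984 over 49773 to 103959 and from 18526 over 48426 to 88206, and 107 of 113 and 51 of 56 lay below the median of the others. 2210010C04Rik had ratios of 1.001 (0.992 to 1.01) and 0.863 (0.849 to 0.878). Try10 had ratios of 1.97 (1.87 to 2.07) and 0.985 (0.866 to 1.12), and the pseudogene Gm5409 had 8 and 0 UMIs in Prss1-high barcodes.

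Counts over all genes give the background for these values. A gene was measured where at least 20 UMIs were expected in each arm, and called where the arms differed by 1.5-fold or more. In diabetic sedentary 23 of 979 genes measured were higher (2.35%) and 161 lower (16.4%), with a median log2 ratio of -0.18. In diabetic exercise 54 of 470 were higher (11.5%) and 79 lower (16.8%), with a median of -0.11. Of the 11 trypsinogens measured, 8 were higher and 1 lower in each library, with medians of 5.92 and 5.77. The rule used Prss1 and counted Prss2, Try4 and Try5, so nothing is read from these shares. Since trypsinogens take up a larger part of the total in Prss1-high barcodes, all other genes are pushed down together: with trypsinogens left out of the total the median over all genes was 0.07 and 0.17, and Prss2 still had log2 ratios of -0.58 and -0.87. edgeR's TMM scaling moved every ratio by 0.12 in diabetic sedentary and by -0.56 in diabetic exercise (log2).

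Spink1, the trypsin inhibitor of the granules, followed the 6 trypsinogens by mean log2 ratio over both libraries. Its level was 11197 CPM in Prss1-high and 3313 in other acinar barcodes of diabetic sedentary (ratio 3.38, 3.32 to 3.44), 15047 and 3583 in diabetic exercise (4.20, 4.09 to 4.31), and 3730 in none. Single barcodes ran from 1269 over a median of 6490 to 55168 CPM in diabetic sedentary and from 1610 over 7886 to 46901 in diabetic exercise, against medians of 3019 and 3388 in other acinar barcodes. Of these barcodes 101 of 113 and 53 of 56 lay above the median of the others, and 45 and 27 above their 99th percentile. One barcode of diabetic sedentary held 33.6% of its Spink1 UMIs. With every barcode weighted equally the log2 ratios were 1.25 and 1.56, against 1.76 and 2.07 from the sums.

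Among the other trypsin inhibitors and cathepsins, Ctsl (cathepsin L) stood at 360 against 177 CPM in diabetic sedentary (ratio 2.04, 1.84 to 2.26) and 254 against 174 in diabetic exercise (1.46, 1.19 to 1.78), where TMM scaling took its log2 ratio to -0.01. Cst3 (cystatin C, an inhibitor of cathepsins) had ratios of 0.706 and 0.666, and Itih4 (of a family of plasma protease inhibitors) 0.303 and 0.290, on 20 and 6 UMIs. Ctsb (cathepsin B) stood at 54.2 against 53.5 CPM in diabetic sedentary and 53.4 against 70.2 in diabetic exercise. Of the list, 2 of 8 members measured (Spink1 and Ctsl) were higher and 1 (Itih4) lower in diabetic sedentary (median log2 -0.28), and 1 of 7 (Spink1) higher and 1 (Itih4) lower in diabetic exercise (median -0.35).

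Other digestive enzymes were level or lower. Of chymotrypsins, elastases and carboxypeptidases, 0 of 10 members were higher and 1 lower in diabetic sedentary (median log2 -0.27), and 0 of 9 higher and 4 lower in diabetic exercise (-0.57). Cela1 (elastase) stood at 17844 against 37712 CPM (ratio 0.473, 0.466 to 0.480) and 15271 against 42104 (0.363, 0.354 to 0.372), while Ctrb1 (chymotrypsinogen B) had ratios of 1.03 (1.02 to 1.03) and 1.20 (1.19 to 1.21). Of the lipases and their cofactor, 3 of 6 were lower in diabetic sedentary (median -0.55) and 4 of 6 in diabetic exercise (-0.78), with 0 higher in both. Pnlip (pancreatic lipase) had ratios of 0.600 (0.591 to 0.608) and 0.431 (0.420 to 0.442), Clps (colipase) 0.653 and 0.544, and Pnliprp2 0.858 and 0.901. Of the 3 amylase genes measured, 2 were lower in diabetic sedentary and 3 in diabetic exercise (medians -0.72 and -1.51), and Amy2b had ratios of 0.885 (0.795 to 0.982) and 0.350 (0.308 to 0.396). Amy2a5 and Amy1 rest on 23 and 14 UMIs in diabetic sedentary and 9 each in diabetic exercise. Rnase1 had ratios of 0.680 and 0.518, and Klk1 (kallikrein) 0.730 and 0.630. Cela1, Ctrb1, Pnlip, Clps, Amy2a5 and Rnase1 are counted by the rule.

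Of proteins of the zymogen granule, 0 of 7 were past 1.5-fold in diabetic sedentary (median -0.15) and 2 of 7 were lower in diabetic exercise (-0.28). Sycn (syncollin, of the granule membrane) had ratios of 1.12 and 0.826, Gp2 (the main glycoprotein of that membrane) 0.749 and 0.598, and Zg16, a rule gene, 0.719 and 0.595. Of the acinar transcription factors, Rbpjl, the acinar partner of Ptf1a, stood at 33.3 against 56.1 CPM in diabetic sedentary (ratio 0.593, 0.412 to 0.826) and 50.9 against 106 in diabetic exercise (0.478, 0.292 to 0.739), on 35 and 20 UMIs. Bhlha15, which drives the secretory apparatus, had ratios of 0.920 (0.649 to 1.27) and 0.650 (0.355 to 1.09). Cckar, the receptor of the secretagogue cholecystokinin, had ratios of 0.608 (0.488 to 0.749) and 0.735 (0.550 to 0.962). The intervals of Bhlha15 include 1 in both libraries.

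The genes for protein synthesis and export stayed near the median of all genes. Of the ER chaperones, 0 of 21 members were higher and 1 lower in diabetic sedentary (median 0.01), and 2 of 13 higher and 1 lower in diabetic exercise (0.00), where TMM scaling took the median to -0.56. Hsp90b1 had ratios of 1.32 (1.15 to 1.51) and 1.56 (1.21 to 1.97) and Calr (calreticulin) 1.34 (1.12 to 1.60) and 1.86 (1.36 to 2.48), while Herpud1, of ER-associated degradation, had 0.612 and 0.801. Of ribosomal proteins 0 of 26 were past 1.5-fold in both libraries (medians -0.01 and -0.07). Nupr1, a stress-induced chromatin protein of acinar cells, stood at 1929 against 1067 CPM in diabetic sedentary (ratio 1.81, 1.73 to 1.89) and 1872 against 1279 in diabetic exercise (1.46, 1.36 to 1.57). Its single barcodes ran from 0 over 1267 to 13640 and from 0 over 1308 to 6289 CPM, and the ranges of both arms overlapped in full. Of the integrated stress response list, 1 of 10 members (Nupr1) was higher and 3 lower in diabetic sedentary (median -0.21), and 1 of 5 (Atf3, also an immediate early gene) was higher in diabetic exercise (0.17).

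Genes of other acinar states were lower in the summed Prss1-high barcodes. Of the Reg family, secreted proteins that acinar cells make in pancreatitis and metabolic stress, 5 of 6 were lower in diabetic sedentary (median -0.96) and 4 of 6 in diabetic exercise (-0.87), with 0 higher. Reg2 stood at 3528 against 8034 CPM (ratio 0.439, 0.425 to 0.453) and 865 against 2851 (0.303, 0.272 to 0.337). Its single barcodes ran from 356 over a median of 4067 to 16612 CPM in diabetic sedentary and from 0 over 1248 to 5387 in diabetic exercise, and 86 of 113 and 45 of 56 lay below the median of the others. Reg3a had ratios of 0.405 (0.333 to 0.488) and 0.154 (0.0419 to 0.394), the latter on 4 UMIs. Tff2 (a trefoil peptide) stood at 554 against 1308 (0.423, 0.390 to 0.459) and 659 against 1517 (0.434, 0.383 to 0.491), and Hamp2 (a hepcidin) had ratios of 0.422 and 0.198. Mt1 (metallothionein) had ratios of 0.584 (0.536 to 0.634) and 0.492 (0.431 to 0.559), and Gatm, which makes the precursor of creatine, 0.541 (0.442 to 0.654) and 0.385 (0.286 to 0.508). With each barcode weighted equally the median of the Reg family was -0.71 and -0.15, against -0.24 and -0.22 over all genes measured. By that weighting the family was not lower than other genes in diabetic exercise.

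**Figure D3:**
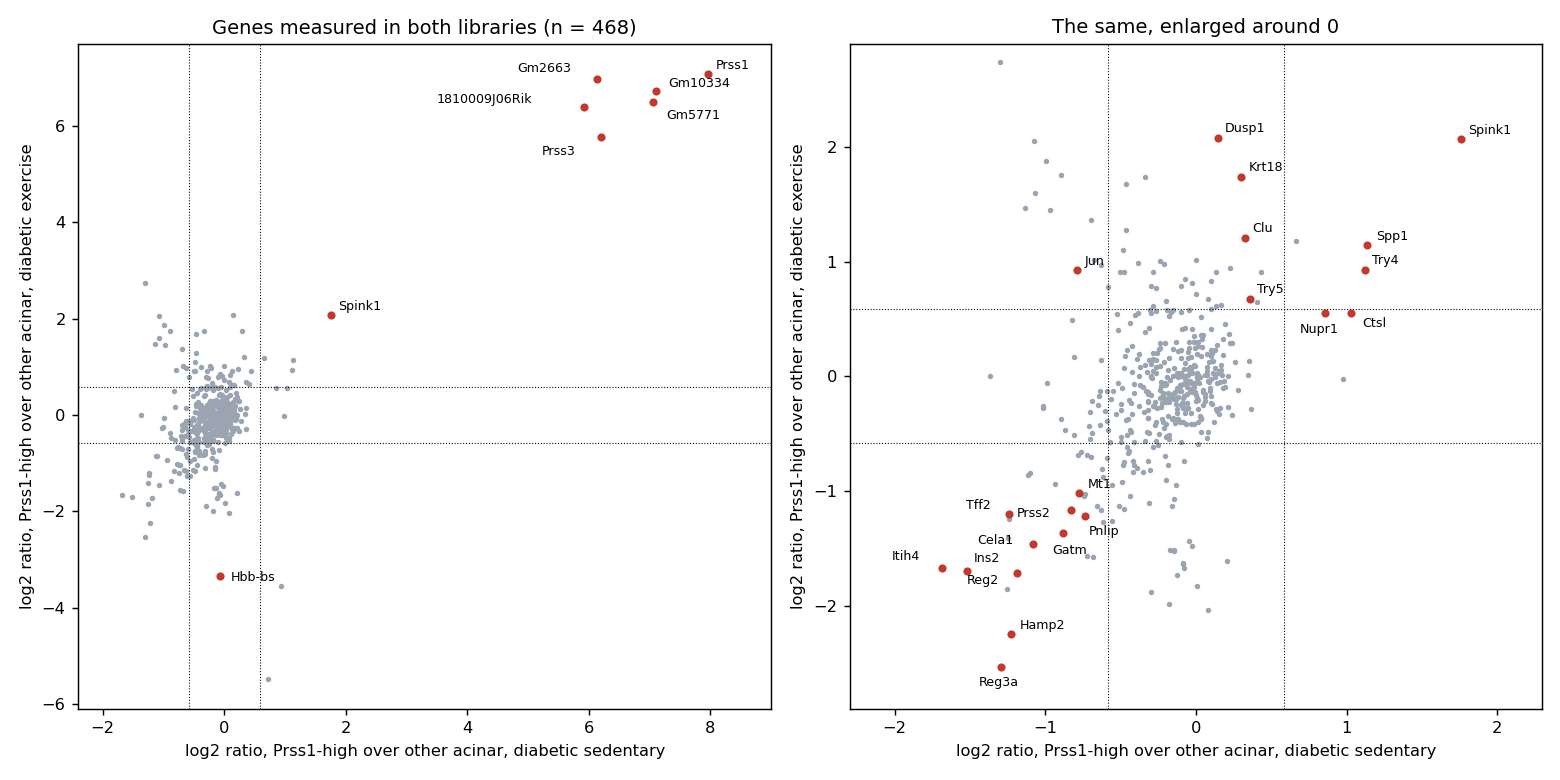
Log2 ratio of Prss1-high over other acinar barcodes in diabetic exercise (y axis) against diabetic sedentary (x axis) for the 468 genes measured in both libraries; the right panel enlarges the region around 0, dotted lines mark 1.5-fold, and red points are labelled genes. The 6 trypsinogens lie between 5.77 and 7.97 on both axes, Spink1 follows at 1.76 and 2.07, and Reg2, Reg3a, Tff2 and Hamp2 lie below -1 on both.

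Of the 12 genes with the highest mean log2 ratio outside the rule, 5 were trypsinogens, followed by Spink1, Spp1, Dusp1, Krt18, Dbi, Ctsl and Clu. The 12 lowest were Reg3a, Hamp2, Hbb-bs, Itih4, Ins2, Reg2, Gsn, Tff2, Ang, Gatm, Neat1 and Rnase4. Hbb-bs (haemoglobin) had ratios of 0.949 (0.822 to 1.09) and 0.0911 (0.0334 to 0.199). Ins2 (insulin) had ratios of 0.346 (0.270 to 0.438) and 0.297 (0.153 to 0.519), and Neat1, a nuclear RNA, 0.457 (0.347 to 0.592) and 0.543 (0.378 to 0.756).

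In both diabetic libraries, Spp1, Dusp1, Krt18 and Clu, and with them the immediate early genes, stood higher in few barcodes than in the rest summed. Immediate early genes, which are switched on within minutes by signals and by tissue dissociation, held a median of 0.0556% of UMIs in Prss1-high barcodes of diabetic sedentary and 0.0422% in diabetic exercise. In 5 barcodes of the first library (4110 to 11513 UMIs) and 4 of the second (14298 to 38520 UMIs) they held at least 0.5%, with nothing between 0.459% and 0.860% and between 0.334% and 0.699%. The 4 barcodes of diabetic exercise held 1174 of its 1322 immediate early UMIs (88.8%) and 29.7% of all UMIs of the set, and 2 of them are the near-identical pair above. They held Spp1 (osteopontin) at 1234 to 2129 CPM, Krt18 (a keratin) at 685 to 1180, Clu (clusterin) at 2673 to 3513 and Dusp1 (a phosphatase) at 560 to 1064, where the other Prss1-high barcodes of that library summed to 148, 61.5, 666 and 47.0. Their Prss1, at 14617 to 17534 CPM, was within the range of the rest. The 5 barcodes of diabetic sedentary held 3.55% of all UMIs of that set and 39.5% of its immediate early UMIs. Among other acinar barcodes, those at 0.5% or more held 40.8% of such UMIs in diabetic sedentary and 31.3% in diabetic exercise. The 5 Prss1-high barcodes had Spp1 at 1129 to 8516 CPM, Krt18 at 311 to 3862, Clu at 2519 to 6813 and Dusp1 at 782 to 2703. The other Prss1-high barcodes of diabetic sedentary summed to 141, 65.0, 420 and 25.6. With all barcodes, Krt18 had ratios of 1.23 (1.02 to 1.46) and 3.33 (2.79 to 3.96) and Spp1 2.19 (1.96 to 2.45) and 2.20 (1.93 to 2.50). Barcodes at 0.5% or more were then left out of both arms, a choice made after seeing the data that removed 4.42% and 7.14% of Prss1-high and 9.50% and 6.32% of other acinar barcodes. In diabetic exercise the log2 ratios were then -0.44 for Krt18, -0.46 for Spp1, -0.045 for Dbi (a protein that binds acyl-CoA), 0.17 for Dusp1 and 0.31 for Clu. In diabetic sedentary they were -0.23 for Krt18, 1.19 for Spp1, 0.73 for Dbi, -0.38 for Dusp1 and 0.12 for Clu, so Spp1 and Dbi stayed above 1.5-fold there. Over all genes measured the median was then -0.17 in diabetic sedentary and -0.38 in diabetic exercise, so Krt18 and Spp1 lay near it in diabetic exercise. Left out of the Prss1-high arm alone, the same barcodes gave Spp1 0.02 and -0.88.

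The list of immediate early genes followed. In diabetic sedentary 0 of 14 members were higher and 8 lower (median log2 -0.74), and in diabetic exercise 11 of 12 were higher (1.42). Without the barcodes at 0.5% or more in both arms the medians were -0.69 over 12 members and -0.75 over the 5 still measured. Without them in the Prss1-high arm alone they were -1.33 and -1.22, a fall that the one-sided choice builds in. The list itself chose these barcodes, so its sign without them is a description only. Of 4 genes that acinar cells gain on turning duct-like, 1 was higher in diabetic sedentary (median 0.31) and 4 in diabetic exercise (1.45), and without those barcodes in both arms the medians were -0.055 and -0.23. The medians over all genes measured were -0.17 and -0.38 in that setting, so the duct-like list was not below them.

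**Figure D4:**
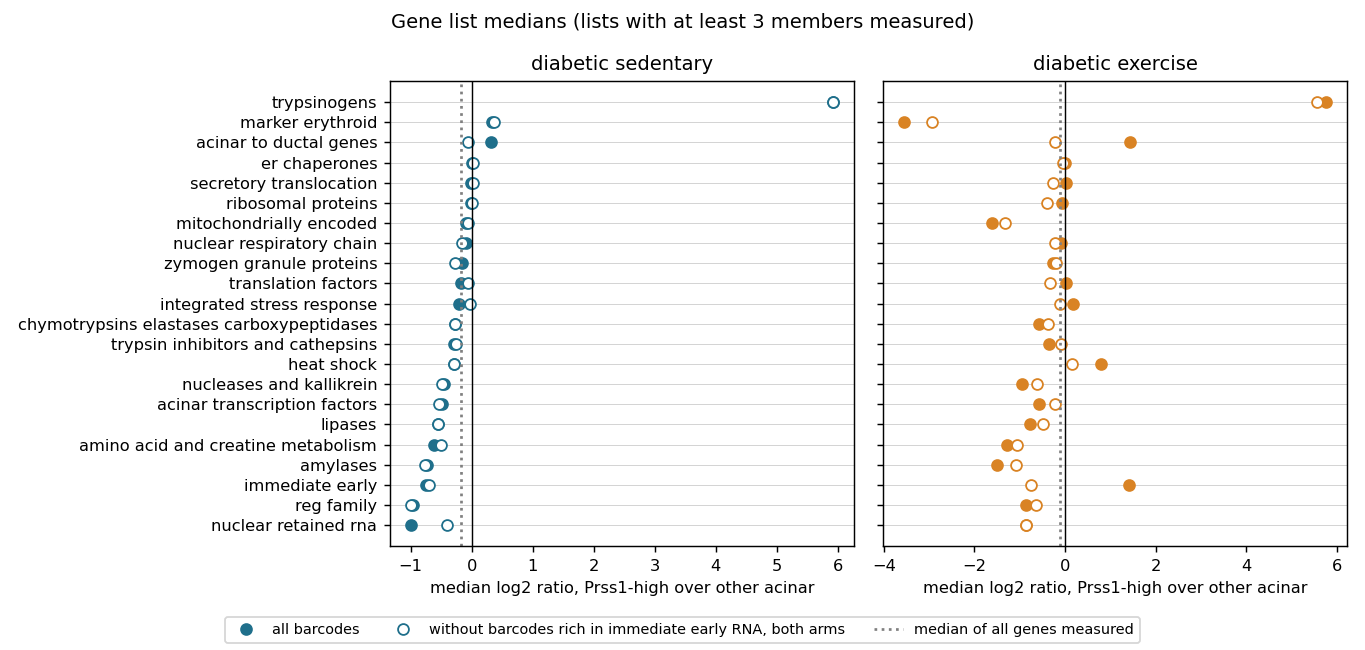
Median log2 ratio of Prss1-high over other acinar barcodes (x axis) for each gene list with at least 3 members measured (y axis), per library. Filled circles use all barcodes. Open circles leave out of both arms those with at least 0.5% of UMIs from immediate early genes. The dotted line is the median of all genes measured with all barcodes. For the setting of the open circles that median is -0.17 in diabetic sedentary and -0.38 in diabetic exercise, and is not drawn. Trypsinogens lie at 5.92 and 5.77 with all barcodes, and the immediate early list, which chose the barcodes left out, moves from 1.42 to -0.75 in diabetic exercise.

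Mitochondrially encoded genes were level in diabetic sedentary, with 0 of 10 past 1.5-fold (median -0.09), and lower in diabetic exercise, with 10 of 10 lower (-1.62), where other acinar barcodes held 6.84% of UMIs from mitochondrial genes. mt-Co1 (a subunit of cytochrome oxidase) had ratios of 0.965 (0.873 to 1.07) and 0.368 (0.317 to 0.424). Prss1-high barcodes of that library were also deeper than the others, and the part of depth was not tested. Of 3 nuclear-retained RNAs measured, 2 were lower in diabetic sedentary (median -0.99), and 2 lower and 1 higher in diabetic exercise (-0.86). Malat1 had ratios of 0.501 (0.445 to 0.563) and 3.67 (3.41 to 3.95). In diabetic exercise 1 barcode held 51.1% of the Malat1 UMIs.

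Endothelial, fibroblast, macrophage and islet markers summed lower in Prss1-high than in other acinar barcodes. Lymphocyte markers were near 0 in both arms, level in diabetic sedentary and lower in diabetic exercise. Ductal markers summed higher in both libraries, and erythroid markers higher in diabetic sedentary only. The 8 endothelial markers summed to 11.4 and 7.63 CPM against 62.7 and 54.3 in other acinar barcodes, with 0 UMIs of Esam in both libraries and of Cdh5, Kdr, Flt1, Plvap and Emcn in diabetic exercise. Lymphocyte markers summed to 2.85 and 2.54 against 3.00 and 6.63, fibroblast markers to 26.6 and 10.2 against 102 and 94.2, and macrophage markers to 24.7 and 43.2 against 77.6 and 130. Islet markers summed to 96.0 and 61.0 against 306 and 165. Of the endothelial and of the lymphocyte markers 0 of 8 were measured in both libraries. Measured in diabetic sedentary and diabetic exercise were 2 and 0 of 7 fibroblast, 1 and 0 of 8 macrophage and 3 and 1 of 8 islet markers. Sums with 0 members measured rest on few UMIs. Of the 8 ductal markers, which summed to 344 and 903 against 196 and 391, Spp1 was the 1 member measured, and its values without the barcodes rich in immediate early RNA are given above. Erythroid markers summed to 368 and 25.4 against 323 and 311, and 1 barcode of diabetic sedentary (2279 UMIs, 11.3% mitochondrial) held 359 of the 387 erythroid UMIs of that set.

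Within the Prss1-high set, barcodes with more Prss1 also had more of the other silent copies and less Prss2. In diabetic sedentary (n = 113) and diabetic exercise (n = 56), Spearman's rho of the share of Prss1 with that of Gm10334 was 0.88 and 0.81, with Gm5771 0.78 and 0.81, with Prss3 0.76 and 0.67, with Gm2663 0.56 and 0.57 and with 1810009J06Rik 0.41 and 0.46. For Spink1 it was 0.45 and 0.61, for Prss2 -0.68 and -0.67, for Pnlip -0.58 and -0.71 and for Reg2 -0.46 and -0.30. Try4 (0.24 and 0.23), Try5 (0.08 and 0.24) and Ctrb1 (0.02 and -0.21) had weak values. These are descriptions with no test: barcodes of a library share its free RNA, shares of 1 barcode add to a fixed total, and near-identical copies share reads.

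Binned by Prss1 share, the 22, 28, 33 and 30 barcodes of diabetic sedentary at 0.2 to 0.5%, 0.5 to 1%, 1 to 2% and 2% or more had median Prss2 levels of 61222, 60104, 49066 and 28813 CPM. Their medians of Gm10334 were 4955, 8416, 19728 and 45862, and those of Spink1 4879, 4626, 6846 and 9077. In diabetic exercise the same bins held 7, 20, 19 and 10 barcodes, with median Prss2 levels of 55542, 59183, 42462 and 27962 and median Gm10334 levels of 9317, 13177, 32663 and 70530. Median Prss2 was lowest in the bin with the most Prss1 in both libraries, on few barcodes in the outer bins of diabetic exercise. The bins were cut on the share that chose the barcodes, Prss2 is a rule gene, and shares within a barcode add to a fixed total. This order is therefore a description only. Median depth over the bins was 7107.5, 5306, 4999 and 7083 UMIs in diabetic sedentary and 4213, 2311, 4272 and 7743 in diabetic exercise. Spearman's rho of UMIs per barcode with the share of Prss1 was 0.03 and 0.35, and with that of Gm10334 0.16 and 0.51, so depth moved with these shares in diabetic exercise, and its part in them was not tested.

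**Figure D5:**
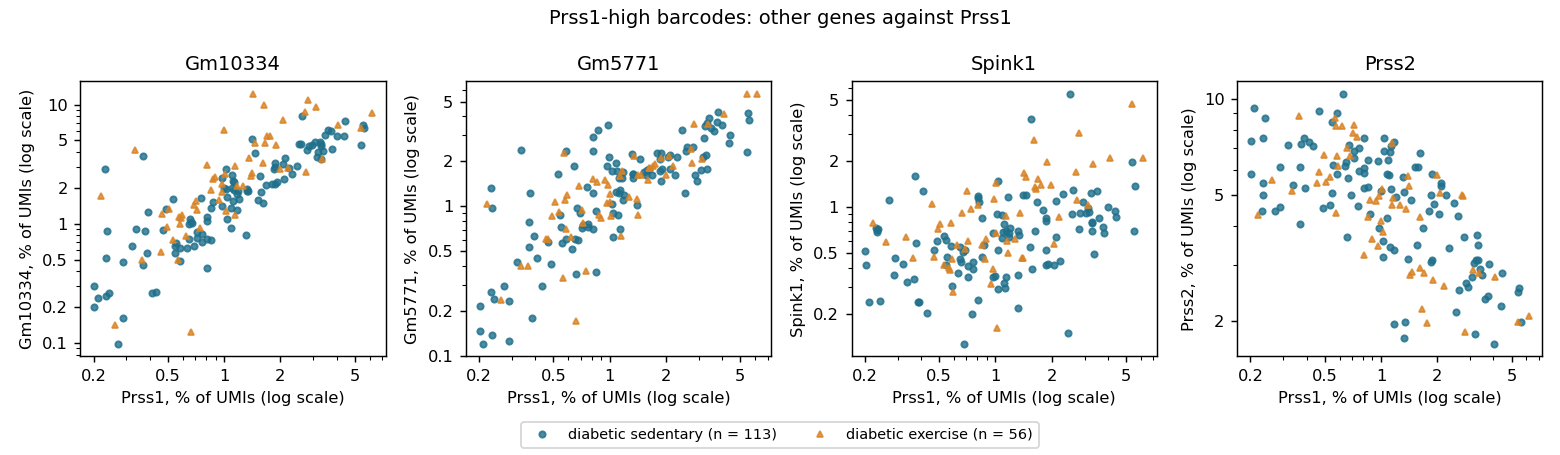
Share of UMIs from Gm10334, Gm5771, Spink1 and Prss2 (y axes, percent, log scales) against that of Prss1 (x axes, percent, log scales) in each Prss1-high barcode of diabetic sedentary (circles, n = 113) and diabetic exercise (triangles, n = 56). Gm10334 and Gm5771 lie higher at higher Prss1, Spink1 does so more loosely, and Prss2 lies lower.

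The balance between copies varied from barcode to barcode. The level of Gm10334 was 0.364 to 12.4 times that of Prss1 in diabetic sedentary (median 1.42) and 0.185 to 12.4 times in diabetic exercise (median 2), for transcripts of similar length. Chosen by the same thresholds on other copies, 162 of 9767 and 65 of 14460 acinar barcodes passed for Gm5771, of which 106 and 54 were Prss1-high. For Gm10334 175 and 136 passed, of which 111 and 54 were Prss1-high, and for Prss3 266 and 117, of which 107 and 54 were. For Gm5771, Gm10334 and Prss3 together 119 and 57 passed, and 103 and 52 of them were Prss1-high. Taken singly, each of these 3 copies picked nearly all Prss1-high barcodes and further ones. Reads may cross between these copies and Prss1, and the part of shared reads in the overlap was not tested. For 1810009J06Rik 168 and 31 passed, of which 88 and 28 were Prss1-high, and for Gm2663 124 and 30, of which 79 and 25 were, so these 2 left out more of the Prss1-high barcodes, 28 and 31 of the 56 in diabetic exercise.

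In none, the trypsinogens other than Prss1 were seen at such levels in few barcodes. The highest counts in an acinar barcode were 70 UMIs for Gm5771, 64 for Gm10334, 110 for Prss3, 19 for 1810009J06Rik and 14 for Gm2663. Barcodes past the thresholds for Gm5771, Gm10334 and Prss3 together numbered 2 of 8584, with 70, 64 and 110 UMIs of 8869 in the first and 67, 57 and 82 of 4838 in the second. Both had 1 UMI of Prss1 and 0 of 1810009J06Rik and Gm2663. For Prss3 alone 20 barcodes passed. Summed over all acinar barcodes of none, Prss1 stood at 1.99 CPM, Gm5771 at 14.0, Gm10334 at 38.3, Prss3 at 161, 1810009J06Rik at 13.7 and Gm2663 at 26.1.

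Between the diabetic libraries, the level of the 6 genes within Prss1-high barcodes differed by 0.780 to 1.93 times, while the share of such barcodes was lower in diabetic exercise over all acinar barcodes (0.387% against 1.16%) and higher at 5000 UMIs or more (2.79% against 1.27%). Exercise over sedentary, the ratio within the set was 1.30 (1.26 to 1.33) for Prss1, 1.38 (1.34 to 1.41) for Gm5771, 1.93 (1.90 to 1.97) for Gm10334, 1.30 (1.27 to 1.33) for Prss3, 1.32 (1.27 to 1.38) for Gm2663 and 0.780 (0.745 to 0.817) for 1810009J06Rik. In the other acinar barcodes the ratios were 2.40, 2.04, 2.49, 1.75, 0.735 and 0.560. TMM scaling took the log2 ratio within the set below 0 for Prss1 (-0.16), Gm5771 (-0.08), Prss3 (-0.16) and Gm2663 (-0.14). Weighting barcodes equally did so for Prss1 (-0.11), Gm5771 (-0.05), Prss3 (-0.08) and Gm2663 (-0.27). Gm10334 stayed above 0 (0.41 and 0.55). Spink1 had a ratio of 1.34 (1.30 to 1.39) within the set and 1.08 in other acinar barcodes, and Prss2 0.761 (0.747 to 0.776) and 0.960.

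Over all genes, 111 of the 397 measured within Prss1-high barcodes were higher in diabetic exercise (28.0%) and 17 lower (4.28%), with a median log2 ratio of 0.30. Without the barcodes rich in immediate early RNA 31 of 250 were higher and 17 lower, with a median of 0.06. The 10 highest were Hes1, Klf6, Tmem176a, Nfib, Tmsb10, Ccn1, Atf3, Malat1, Dsg2 and Zbtb20. Hes1, a transcription factor of the Notch pathway, stood at 4.75 CPM in diabetic sedentary (5 UMIs) and at 242 in diabetic exercise (95 UMIs), which is 50.9 times as high (21.05 to 160), and its log2 ratio without those barcodes was 1.88. Klf6, Malat1 and Nfib, at ratios of 12.2, 6.98 and 9.75, had log2 ratios of -0.60, -0.58 and -0.45 without them.

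The 10 lowest held Hba-a2, Hba-a1, Hbb-bs, Reg3a, Reg2, Reg3b, Try10, Reg3d, Ins2 and Sdf2l1. The haemoglobin genes rest on the 1 barcode of diabetic sedentary named above, and Hba-a2 had 71 and 0 UMIs. All 6 Reg genes were lower in diabetic exercise (median log2 -1.22). Reg2 had a ratio of 0.245 (0.219 to 0.274) within the set and 0.355 in other acinar barcodes, Reg3a 0.0965 (0.0258 to 0.254) and 0.254, and Reg3b 0.395 (0.333 to 0.466) and 0.300, so that both arms of the exercise library held less. Try10 had a ratio of 0.396 (0.345 to 0.453) within the set and 0.791 outside it.

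Over all acinar barcodes, the genes whose share per barcode ranked most like that of Prss1 were few and weakly so. Among 476 genes detected in at least 10% of acinar barcodes of every library, the mean Spearman's rho over the 3 libraries was 0.16 for Prss3, 0.14 for Gm10334, 0.13 for Gm2663 and 0.11 for Try4. The next were Try5 at 0.08 and Cela2a at 0.06. In such sparse counts values this weak are no finding.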

How the data were processed

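RNA of dissociated mouse pancreas was counted in 3 single-cell libraries, 1 per group, so no test between groups was made. The authors deposited raw UMI counts per gene and barcode, made with Cell Ranger (version 6.1.2 per the file headers, 7.1.0 per the submitters' processing notes). The genome build was not given in the sources used here. Identifier and symbol of all 55450 features were found in GENCODE M21 (GRCm38), which gave the positions. The members, gene lists and rule for named genes were chosen with earlier results of these data known.

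Counts were summed per library over Prss1-high and over other acinar barcodes and divided by all their UMIs. Log2 ratios carry a prior count of 0.5. A gene was measured at 20 or more expected UMIs in each arm. Intervals for ratios are exact conditional Poisson, those for shares exact Clopper-Pearson, at 95%. They cover counting error only, and barcodes vary more. Limits for a share of 0 stand for 3 counts. The genes named are the members of the trypsinogen list, those at either end of a ranking, and members of the other lists. Within libraries these were the 12 at either end of the mean log2 ratio among 245 genes. The 245 were measured with 1 direction in both libraries, at 50 or more counts per 1000000 UMIs (CPM) in an arm of each. Prss1 and the 16 acinar genes of the rule were left out. Between libraries, the 10 at either end came from genes with at least 50 UMIs and 50 CPM in the higher library. There, mt-, Rps and Rpl genes were left out. Genes said to be outside the rule are not in its 16. Doublets were scored with Scrublet in scanpy 1.11.5 and not removed. The ratio was tested on simulated data. edgeR 4.0.16 (R 4.3.3) gave TMM factors for an alternative scaling. Python 3.11.15, numpy 2.4.6, scipy 1.17.1 and pandas 2.3.3 were used. Depth was 45209034 to 80185752 UMIs per library.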

Additional observations from a re-analysis of the deposited data

Results flagged for a closer look

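The list of immediate early genes had opposite signs in the 2 diabetic libraries, with a median log2 ratio of Prss1-high over other acinar barcodes of -0.74 in diabetic sedentary and 1.42 in diabetic exercise. The difference was not tested. With barcodes rich in immediate early RNA left out of both arms the medians were -0.69 and -0.75. Of the immediate early UMIs of the Prss1-high set, 4 barcodes held 88.8% in diabetic exercise, and 5 held 39.5% in diabetic sedentary.

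Outside the acinar class, 4 barcodes of diabetic sedentary also passed the Prss1 thresholds, with 11 to 251 Prss1 UMIs (0.226% to 1.92%) of 3243 to 15916 UMIs and an acinar-gene share of 11.6% to 22.8%. In none and diabetic exercise 0 did. One of the 4 had at least 3 UMIs of endothelial markers.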

How the results depend on the processing

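No paired analysis was possible because each group is 1 library. The share of Prss1-high barcodes was 0.952% in diabetic sedentary with at least 20 Prss1 UMIs, and in diabetic exercise 0.629% with at least 5, 0.256% with at least 20, and 2.79% both in barcodes of at least 5000 UMIs and thinned to 5000. In none it stayed 0 under all settings tried. Counts of genes 1.5-fold apart, given as higher and lower, moved most. With barcodes thinned to 2000 UMIs they were 15 and 27 in diabetic sedentary, 9 and 23 in diabetic exercise and 12 and 10 between the libraries. With trypsinogens left out of the total they were 39 and 57 (40.6% higher, against 12.5%) and 64 and 44 (59.3%, against 40.6%). With TMM factors they were 27 and 107, 22 and 276 (7.38% higher), and 55 and 75 between the libraries (42.3%, against 86.7%). Higher genes numbered 11 and 8 at an acinar share of at least 50%. With a minimum of 5 expected UMIs counts were 175 and 906, and 460 and 286. Weighting barcodes equally left 19 higher in diabetic exercise and 71 between libraries, and leaving the barcodes rich in immediate early RNA out of the Prss1-high arm 11 and 31. In diabetic exercise an acinar share of at least 50%, equal weights, and leaving out those barcodes took the immediate early median to -0.68, -0.20 and -1.22, and Spp1 to -7.11e-05, -0.26 and -0.88. Between libraries the last 2 took that median to -0.051 and -0.084. At the acinar share of at least 50% Krt18 was at -0.43 in diabetic exercise and Spp1 at -0.027 in diabetic sedentary. Left out of both arms, those barcodes gave 11 higher genes, medians of -0.75 (immediate early) and -0.23 (duct-like), Dbi at -0.045, Krt18 at -0.44 and Spp1 at -0.46 in diabetic exercise. Left out of the Prss1-high arm alone, they gave the duct-like list at -0.51, heat shock at -0.0053, Dbi at -0.21, Dusp1 at -0.34 and Krt18 at -0.70 in diabetic exercise, and Klf6 at -0.60, Malat1 at -0.58 and Nfib at -0.45 between libraries. The duct-like list between libraries was at -0.064 with equal weights and -0.10 thinned, where Ccn1 was at -0.65, amylases at 0.24 in diabetic sedentary, and nuclear-retained RNA at 0.083 and Rnase4 at 0.047 in diabetic exercise. Hbb-bs between libraries was at 0.17 under a mitochondrial ceiling of 10%. The cause of these changes was not tested. Of the other values for single genes 499 moved by less than their interval and 352 by more, with no change of sign in a called value.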
